A study of Mus musculus with 36 samples.

Results

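The miR-378 family was measured by small RNA sequencing of mouse ventral and lateral prostate lobes through 5 mature miRNAs, mmu-miR-378a-3p, mmu-miR-378a-5p, mmu-miR-378b, mmu-miR-378c and mmu-miR-378d, of the 1963 miRNAs listed. The members were taken by name, as all rows with those names. The family was chosen by its pattern over the groups in earlier results of these data. Its levels and differences are therefore given as a description. Tests over all miRNAs are printed, and nothing about the family is read from how many members pass a threshold in them. The 36 libraries fall into 12 groups of 3, from male mice of 10 or 30 weeks on a background that the labels spell C56NL/6N. WT mice carried wild-type Elac2, the gene of a ribonuclease that cuts the 3′ ends of precursor transfer RNAs, KO mice were homozygous for a prostate deletion of Elac2 made with Pb-Cre, and A537T mice were homozygous for the alanine to threonine variant in the whole body. Mice of the groups WT-TRAMP, A537T-TRAMP and KO-TRAMP also carried 1 copy of the TRAMP transgene, in which the prostate-specific probasin promoter drives the SV40 T antigens. The same promoter drives Cre in the KO lines, so that the deletion is confined by design to cells in which this promoter is active, while miRNAs were read from all cells of the lobes. In such bulk tissue, fewer cells of a type and less of an RNA per cell cannot be told apart.

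The miR-378a hairpin lies in an intron of Ppargc1b, which encodes PGC-1β, a transcriptional coactivator of mitochondrial and lipid metabolism. Both of its arms are known as regulators of energy use, and miR-378a-3p is abundant in skeletal muscle, heart and brown fat. miR-133a-3p, which is set beside the family throughout, is a miRNA of skeletal and cardiac muscle. The remaining members, miR-378b, miR-378c and miR-378d, come from other loci and are close in sequence.

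The mature sequences of miR-378b, miR-378c and miR-378d are shown because their likeness bears on how far reads of the members can be told apart. They are given 5′ to 3′ from RefSeq annotation of GRCm38.p6, with the seed, bases 2 to 8, in capitals.
mmu-miR-378b: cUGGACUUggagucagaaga
mmu-miR-378c: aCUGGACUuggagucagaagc
mmu-miR-378d: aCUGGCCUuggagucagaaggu
The annotated 5′ end of miR-378b lies 1 base inside that of miR-378c, so that they share a run of 19 bases and yet have different seeds, UGGACUU and CUGGACU. Over the 20 positions that line up, miR-378b and miR-378c differ by 1 substitution, A20C, and miR-378b and miR-378d by A5C and A20G, with positions counted from the 5′ end of miR-378b. miR-378c and miR-378d differ by A6C and C21G, counted from the 5′ end of miR-378c, and the seed of miR-378d, CUGGCCU, holds the former of these. Because a read can match several of these sequences and such reads were shared out by weight in the authors' counting, the split of reads among the members is uncertain. miR-378b lies on chromosome 11 from 88352839 to 88352858 on the plus strand, in an intron of Msi2 on the strand opposite to that gene. miR-378c lies on chromosome 14 from 46954905 to 46954925 on the minus strand, in an intron of Samd4, also opposite to the gene. miR-378d lies on chromosome 10 from 126710355 to 126710376 on the minus strand, and no other gene is annotated there. miR-378b sits towards the 3′ end of its hairpin, and miR-378c and miR-378d sit towards the 5′ end.

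Library totals ran from 4544257 to 21870210 reads, apart from library 35 of the A537T group of 10 weeks, which held 655455. Libraries are named by the number in their column names. All 5 members had reads in every library, from 5393 to 238973 for miR-378a-3p and from 68 to 4667 for miR-378a-5p. The 95% binomial (Wilson) interval of a member's share of reads was widest in library 35, where it reached 2.66% of the value to either side for miR-378a-3p and 23.9% for miR-378a-5p, and it covers counting error only. As for the labelled tissue, all 7 epithelial miRNAs listed had reads in every library and took 3.84% to 10.3% of reads, and the 6 of smooth muscle and stroma took 6.42% to 40.5%. The 8 skeletal muscle miRNAs took 0.187% to 30.7%, and of these the cardiac and slow-muscle miRNAs miR-208a-3p and miR-208b-3p were listed at 0 in 29 and 21 libraries. By contrast, miR-499-5p of the same list was at 0 in only 1 library, and its remaining miRNAs, miR-206-3p among them, had reads in every library.

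The family was most abundant in the prostates of 10 weeks without TRAMP, and among these in WT. Together its members made up between 0.164% and 1.66% of all miRNA reads, and miR-378a-3p ranked between 15 and 55 among all miRNAs. In RPM, the reads of a miRNA per 1000000 miRNA reads of its library, miR-378a-3p stood at 8451, 13535 and 13969 in the WT libraries of 10 weeks, a mean of 11985 ± 3068 (SD, n = 3). In A537T libraries of 10 weeks it stood at 7371, 8228 and 7413, a mean of 7671 ± 483 (SD, n = 3). In KO libraries of 10 weeks it stood at 4662, 6476 and 2817, a mean of 4652 ± 1830 (SD, n = 3). The lowest WT library was above the highest A537T library, and the lowest A537T library was above the highest KO library. Of these 9 libraries, 8 exceeded all 27 others, the exception being library 33 of KO at 2817.

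At 30 weeks without TRAMP the level was lower and less spread in RPM. By ratio the spread in A537T was wider, 1.29-fold at 30 weeks and 1.12-fold at 10 weeks. WT libraries held 2927, 3259 and 3335 RPM of miR-378a-3p. KO libraries held 2732, 3256 and 2535, and A537T libraries held 2067, 2453 and 1907. WT and KO overlapped, while all A537T libraries lay below both.

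With TRAMP, miR-378a-3p was near this lower level at both ages. At 10 weeks it stood at 1836, 2353 and 1987 RPM in WT-TRAMP and at 1940, 2305 and 2671 in A537T-TRAMP. KO-TRAMP libraries of 10 weeks held 1583, 2101 and 4175, and the last of these, library 9, was the highest of all libraries outside the 3 groups of 10 weeks without TRAMP. At 30 weeks the values were 2025, 2241 and 2150 in WT-TRAMP, 1637, 3147 and 3099 in KO-TRAMP, and 1473, 2527 and 1405 in A537T-TRAMP. Ordered by mean, WT, A537T and KO of 10 weeks came first, followed by WT and KO of 30 weeks, and A537T-TRAMP of 30 weeks came last. From KO of 10 weeks down, each group overlapped the next in this order, so neighbouring ranks there do not differ beyond their spread.

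**Figure D1:**
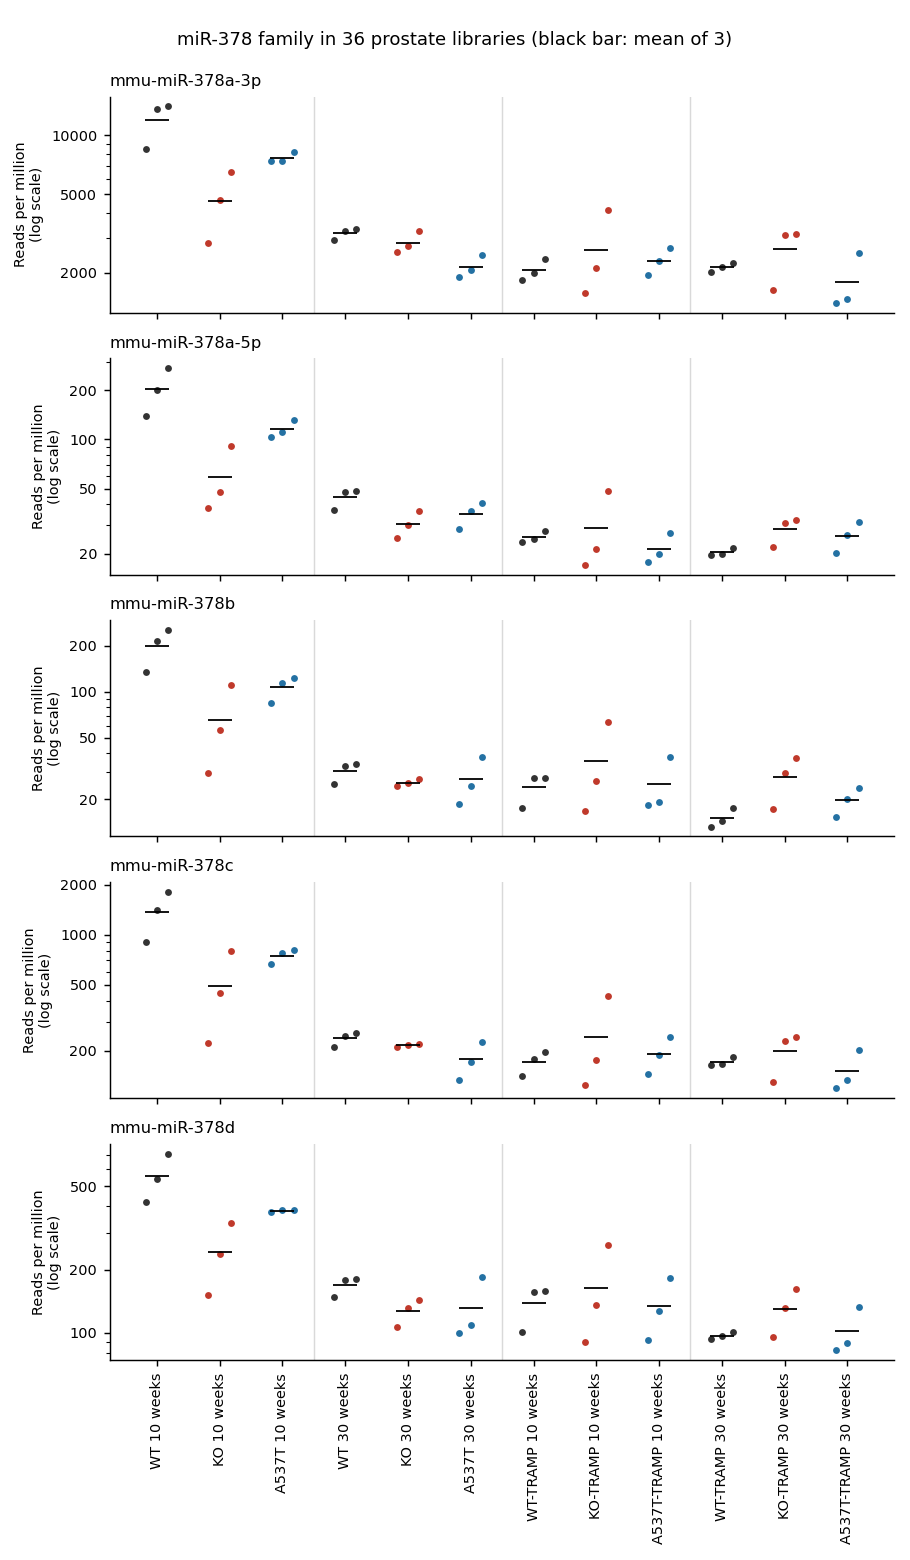
Level in RPM of each member on a log scale, with 1 point per library in 12 groups of 3 and the mean as a black bar. In all 5 panels the WT libraries of 10 weeks stand highest, from 8451 to 13969 for miR-378a-3p, and the groups of 30 weeks and those with TRAMP lie close together below them.

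The less abundant members followed the same broad order. miR-378c was the second most abundant, at 902, 1813 and 1419 RPM in WT of 10 weeks, 805, 774 and 669 in A537T and 447, 801 and 223 in KO. In the other 27 libraries it lay between 118.6 and 428. miR-378d stood at 421, 539.6 and 712 in WT of 10 weeks, at 385, 384 and 377 in A537T and at 238, 334 and 151 in KO, and between 82.7 and 262 elsewhere. For both, WT of 10 weeks stood clear of all other groups, and the A537T and KO libraries of 10 weeks overlapped for miR-378c but not for miR-378d.

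miR-378a-5p, the minor arm of the miR-378a hairpin, and miR-378b were the lowest. miR-378a-5p stood at 139, 202 and 273 RPM in WT of 10 weeks, 132, 104 and 112 in A537T and 47.6, 90.6 and 38.2 in KO. miR-378b stood at 135, 213 and 252 in WT of 10 weeks, 124, 114 and 84.5 in A537T and 56.3, 111 and 29.4 in KO. In the other 27 libraries they ran from 17.1 to 48.4 and from 13.2 to 63.8. The highest value of miR-378b among these 27 was again that of library 9. At 30 weeks WT libraries held 37.1, 47.4 and 48.4 of miR-378a-5p, above KO at 25.02, 36.5 and 30.1, whereas WT-TRAMP libraries held 19.9, 21.7 and 19.7, below KO-TRAMP at 22.0, 30.6 and 32.3. In both pairs of groups the Wilson intervals of the nearest libraries overlapped.

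The proportions of the members to miR-378a-3p varied between libraries and groups. miR-378a-5p amounted to 0.768% to 1.95% of the reads of miR-378a-3p over the 36 libraries, miR-378b to 0.616% to 1.80%, miR-378c to 6.72% to 13.4% and miR-378d to 3.89% to 7.93%. The share of miR-378c was 10.2% to 13.4% in WT of 10 weeks and 7.19% to 7.89% in WT of 30 weeks, with no overlap. The share of miR-378b was likewise 1.57% to 1.80% in the former and 0.860% to 1.02% in the latter. For miR-378d it ran the other way without separating, at 3.99% to 5.10% in the former and 5.08% to 5.48% in the latter. miR-378a-5p amounted to 1.49% to 1.95% in WT of 10 weeks and to 0.915% to 0.981% in WT-TRAMP of 30 weeks. Its share was also higher in A537T of 30 weeks, at 1.49% to 1.75%, than in KO of that age, at 0.916% to 1.19%. All of these shares rest on the uncertain split of reads among near-identical sequences, that of miR-378a-5p through its denominator.

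**Figure D2:**
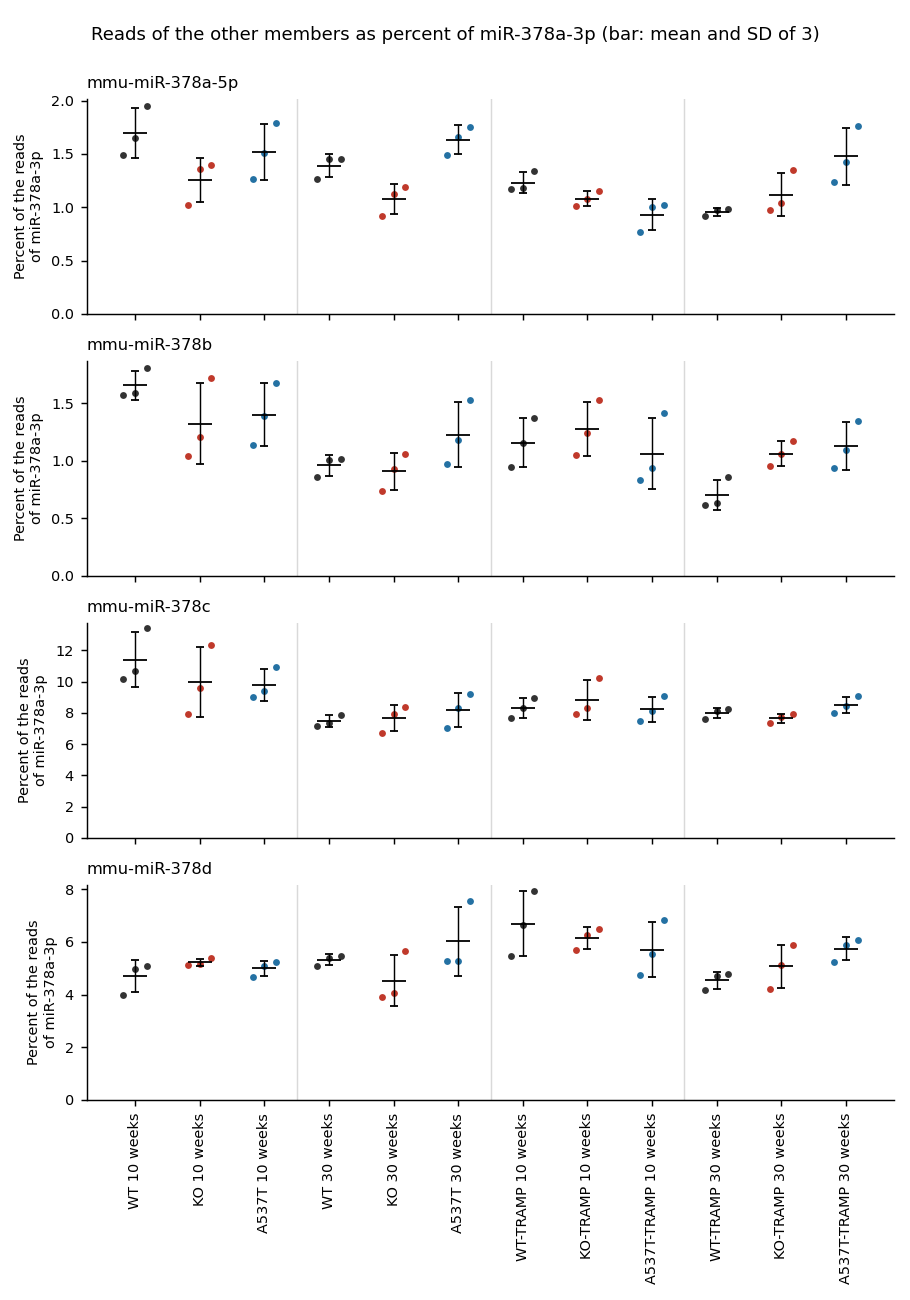
Reads of the other members as a percentage of the reads of miR-378a-3p in the same library, with 1 point per library and bars for the mean and SD of 3. miR-378c lies between 6.72% and 13.4% and is highest in WT of 10 weeks, while miR-378d shows no such elevation there, at 3.99% to 5.10%.

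The study's design asks how each mutant line differs from its control at each age. In these and the following comparisons, differences are of log2(RPM + 1) with their standard error from limma, a linear model with a spread moderated across all miRNAs, in 3 against 3 libraries. The scale understates the change of low miRNAs. A threshold of an adjusted p of 0.05 (Benjamini-Hochberg over all miRNAs tested) defines a call. Counts of called members are printed beside the share of all miRNAs called, and nothing is read from them in any comparison, since the family was chosen on these values. Comparisons that share a control group are not independent, and WT of 10 weeks enters 4 of the 20. Median-of-ratios scaling shifted the median of all miRNAs by -0.37 to 0.37 against RPM, by over 0.1 in 13 of the 20, so each difference of miR-378a-3p is set beside the median of all miRNAs. Of the 100 differences of members, 8 had another sign under another scaling, all in comparisons of KO, KO-TRAMP or A537T-TRAMP, and none in a comparison with a group of 10 weeks without TRAMP.

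At 10 weeks without TRAMP the family was lower in both mutant lines, by more in KO. miR-378a-3p differed from WT by -1.41 ± 0.35 (SE) in KO, where the median of all 513 miRNAs tested was 0.18, and so by -1.59 relative to that median. In A537T it differed by -0.61 ± 0.25 (SE), with a median of all miRNAs of 0.14. Over the 5 members the differences ran from -1.83 to -1.24 in KO and from -0.86 to -0.51 in A537T. All 5 lay below WT with no overlap between groups in both lines, where 11.7% of all miRNAs tested did so in KO and 4.65% in A537T. Even so, 0 of 5 members were called in either comparison by limma, beside 0% of all miRNAs in each, although 71 and 22 miRNAs had an unadjusted p under 0.05. edgeR's quasi-likelihood test also called 0 miRNAs in both. DESeq2 called 29 miRNAs for KO, including all 5 members, and 0 for A537T. The 5 members were called for KO by limma without library 28, the lowest of the WT libraries, and 1 of them without library 32, the highest of the KO libraries.

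Muscle miRNAs had lower levels in the same groups, and limma called 0 of the 7 tested in either comparison, with 7 in KO and 6 in A537T at an unadjusted p under 0.05. edgeR called 0 of 7 in both, and DESeq2 called 6 of 7 lower in KO and 0 in A537T. miR-133a-3p stood at 18824, 32625 and 26937 RPM in WT of 10 weeks, 21685, 12448 and 5334 in A537T and 1326, 10448 and 1371 in KO. Summed, the skeletal muscle list took 9.73% to 30.7% of reads in WT, 3.72% to 13.7% in A537T and 0.736% to 6.51% in KO, with miR-1a-3p as its most abundant member. Over all libraries of the series, miR-206-3p reached at most 3859 RPM, miR-499-5p 621, miR-208b-3p 8.36 and miR-208a-3p 0.258. miR-133a-3p differed from WT by -3.25 ± 0.77 (SE) in KO and by -1.17 ± 0.46 (SE) in A537T. By group means it was 5.96-fold lower in KO, and 19.4-fold lower without library 32, where miR-378b moved from 3.04-fold to 4.66-fold. Libraries 31 and 33 of KO held nearly the same level of miR-133a-3p, 1326 and 1371, and differed in miR-378a-3p, at 4662 and 2817. Among the A537T libraries miR-133a-3p spanned 4.07-fold and miR-378a-3p 1.12-fold. Of the other members, miR-378b stood at 124, 114 and 84.5 RPM in these libraries and miR-378c at 805, 774 and 669. Both followed the order of miR-133a-3p. miR-378d was nearly level, at 385, 384 and 377, and miR-378a-5p, at 132, 104 and 112, had another order. For each of these members the Wilson intervals of libraries 34 and 35 overlapped. With the reads of the muscle list left out of the library totals, miR-378a-3p differed by -1.70 in KO and by -0.81 in A537T. The smooth muscle and stroma list took 30.8% to 36.4% of reads in KO and 7.31% to 30.6% in WT, and limma, edgeR and DESeq2 called 0 of its 6 miRNAs, with 3 at an unadjusted p under 0.05 by limma. The part of muscle or stromal RNA in the differences of the family was not tested.

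At 30 weeks without TRAMP the mutant lines stood closer to WT. miR-378a-3p differed by -0.17 ± 0.15 (SE) in KO, with a median of all miRNAs of -0.19, and by 0.065 under median-of-ratios scaling, so that its direction depends on the scaling, as does that of miR-378c, which was -0.13 and turned to 0.09. In A537T it differed by -0.57 ± 0.17 (SE), against a median of -0.11, with all 3 libraries below WT. The members ranged from -0.53 to -0.13 in KO and from -0.57 to -0.23 in A537T, and 2 of 5 and 1 of 5 lay below WT without overlap, beside 14.1% and 3.63% of all miRNAs. By limma 0 of 5 were called in each, beside 0% of all, and 63 and 29 miRNAs had an unadjusted p under 0.05. miR-133a-3p differed from WT by less than its standard error, by 0.04 ± 0.18 (SE) in KO and by -0.04 ± 0.19 (SE) in A537T. By contrast, miR-1a-3p differed by 0.71 in KO, where it stood at 4118, 7284 and 4947 RPM. All of these lay above WT, at 2995, 3433 and 3271. In A537T it differed by 0.23 and overlapped WT, at 4478, 2682 and 4558. Limma called 0 of 6 muscle miRNAs tested in KO and 0 of 5 in A537T.

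On the TRAMP background differences between the lines were within the spread of the libraries for nearly all members. At 10 weeks miR-378a-3p differed from WT-TRAMP by 0.23 ± 0.33 (SE) in KO-TRAMP and by 0.16 ± 0.19 (SE) in A537T-TRAMP, against medians of -0.18 and -0.20. At 30 weeks it differed by 0.24 ± 0.27 (SE) in KO-TRAMP and by -0.30 ± 0.23 (SE) in A537T-TRAMP, against medians of 0.11 and 0.07. The value of KO-TRAMP at 10 weeks turned to -0.17 without library 9. Of the members, miR-378a-5p in KO-TRAMP at 30 weeks was the only one to lie apart from its control, above it, where 18.3% of all miRNAs did. The Wilson intervals of the nearest libraries of these groups overlapped for miR-378a-5p. In the 4 comparisons limma called 0 of 5 members and 0% of all miRNAs each time, with 16, 33, 102 and 72 miRNAs at an unadjusted p under 0.05. Over the 8 comparisons of mutant lines edgeR called 0 miRNAs in each and DESeq2 0 to 50. Without library 16, the lowest in miR-378a-3p of the KO-TRAMP libraries of 30 weeks, limma called 193 of 521 miRNAs there, all 5 members among them.

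**Figure D3:**
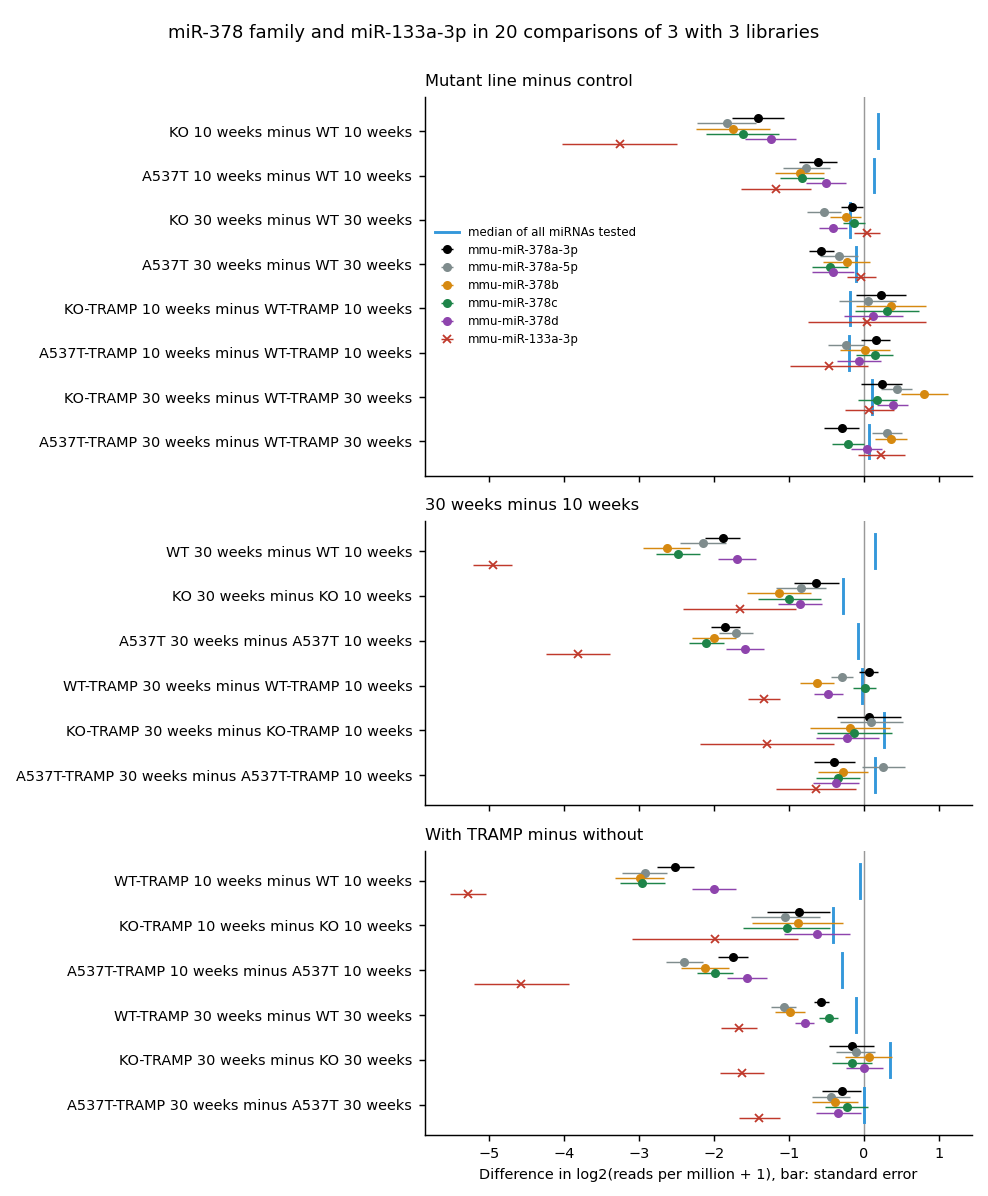
Differences in log2(RPM + 1) for the 5 members (dots) and miR-133a-3p (crosses) in 20 comparisons of 3 with 3 libraries, with standard errors as bars and the median of all miRNAs tested as a blue line. The dots lie far to the left of zero in the comparisons of WT and A537T of 10 weeks with 30 weeks or with TRAMP, where miR-133a-3p lies further left still, at -5.28 for WT-TRAMP against WT of 10 weeks.

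A further set of comparisons asks what differs between 10 and 30 weeks. Without TRAMP the family was lower at 30 weeks in each line. In WT, miR-378a-3p was 3.78-fold lower by the group means, a difference of -1.88 ± 0.23 (SE) against a median of all miRNAs of 0.14. miR-378b was 6.52-fold lower, miR-378c 5.80-fold, miR-378a-5p 4.62-fold and miR-378d 3.30-fold. In A537T the family was 2.91-fold to 4.23-fold lower, with miR-378a-3p at -1.85 ± 0.19 (SE) against a median of -0.08. In KO it was 1.64-fold to 2.57-fold lower, with miR-378a-3p at -0.64 ± 0.30 (SE) against a median of -0.29. Called by limma were 5 of 5 members in WT, beside 3.91% of all miRNAs, 5 of 5 in A537T, beside 15.5%, and 0 of 5 in KO, beside 25.2%. In KO, 4 of 5 members, all but miR-378a-3p, lay below the 10-week level without overlap, as did 41.5% of all miRNAs. For each of these 4, the nearest library of 10 weeks was library 33. Its Wilson interval overlapped that of the nearest library of 30 weeks each time.

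Single libraries decided some of these calls. In WT, 1 of 5 members was called without library 29, 3 without library 20 and 0 without library 21, and 4 without library 19. In KO, 4 of 5 were called without library 33, the lowest of the KO libraries of 10 weeks.

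miR-133a-3p was lower at 30 weeks by a wider margin than any member in WT, where it was 31.4-fold lower, and in A537T, where it was 16.3-fold lower. In KO it was 5.16-fold lower and not called by limma, and this value rested on library 32, without which it was 1.59-fold and miR-378b 1.68-fold lower. The muscle list had 7 of 7 miRNAs called lower in WT, 5 of 6 in A537T and 0 of 6 in KO. At 30 weeks it took 0.389% to 0.449% of reads in WT, 0.356% to 0.546% in A537T and 0.502% to 0.821% in KO. Accordingly, miR-133a-3p stood at 1.93 to 2.41 reads per read of miR-378a-3p in WT of 10 weeks and at 0.232 to 0.296 in WT of 30 weeks. Leaving the muscle list out of the totals moved the difference of miR-378a-3p in WT to -2.20, and the part of muscle RNA in it was not tested.

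With TRAMP, differences of the family between the ages were small beside their errors. miR-378a-3p differed by 0.06 ± 0.12 (SE) between 30 and 10 weeks in WT-TRAMP, by 0.07 ± 0.43 (SE) in KO-TRAMP and by -0.40 ± 0.27 (SE) in A537T-TRAMP, against medians of all miRNAs of -0.02, 0.27 and 0.15. In KO-TRAMP the value was -0.21 under median-of-ratios scaling, and it was also negative when library 7, 8, 17 or 18 was left out, so no direction holds there. By limma 0 of 5 members were called in each, beside 20.6% of all miRNAs in WT-TRAMP, 0% in KO-TRAMP and 1.01% in A537T-TRAMP. In KO-TRAMP 107 miRNAs had an unadjusted p under 0.05, edgeR called 0 and DESeq2 74. miR-378a-5p and miR-378b lay below the 10-week level in WT-TRAMP with no overlap, as did 25.7% of all miRNAs. For both, the Wilson intervals of the nearest libraries overlapped, and for miR-378b these libraries stood at 17.38 and 17.35 RPM. Between the same ages miR-133a-3p was called lower in WT-TRAMP, from 606 to 736 RPM down to 202 to 350. Without library 1, 2 of 5 members were called in WT-TRAMP and miR-378a-3p differed by -0.017.

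The last question concerns TRAMP against the same line and age without it. At 10 weeks the family was lower with TRAMP, most of all in WT. In WT, miR-378a-3p was 5.82-fold lower, a difference of -2.51 ± 0.24 (SE) against a median of -0.05, and the other members were 4.04-fold to 8.34-fold lower. In A537T it was 3.33-fold lower, at -1.74 ± 0.20 (SE) against a median of -0.29, and -1.35 under median-of-ratios scaling. In KO it was 1.78-fold lower, at -0.87 ± 0.42 (SE) against a median of -0.41, and the groups overlapped for all 5 members. Called by limma were 5 of 5 members in WT, beside 24.2% of all miRNAs, 5 of 5 in A537T, beside 33%, and 0 of 5 in KO, beside 43.9%. In KO, 2 of 5 were called without library 9 and 3 of 5 in a single fit of all 36 libraries. miR-133a-3p was 39.7-fold lower with TRAMP in WT and 22.4-fold lower in A537T, or 33.6-fold without library 6. In KO it was 3.99-fold lower, 1.23-fold without library 32 and 9.79-fold without library 9, and miR-378b, at 1.85-fold, was 1.20-fold and 3.06-fold lower without them. Called lower of the muscle list were 7 of 7 in WT, 6 of 6 in A537T and 0 of 6 in KO.

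At 30 weeks the family differed less with TRAMP. In WT, miR-378a-3p was 1.48-fold lower, a difference of -0.57 ± 0.10 (SE) against a median of -0.11, and the other members were 1.39-fold to 2.17-fold lower, all without overlap. In KO it differed by -0.17 ± 0.30 (SE) against a median of 0.35, by -0.57 under median-of-ratios scaling and by 0.14 without library 16 of KO-TRAMP. In A537T it differed by -0.30 ± 0.26 (SE) against a median of 0.00. Called by limma were 5 of 5 members in WT, beside 28.8% of all miRNAs, 0 of 5 in KO, beside 17.6%, and 0 of 5 in A537T, beside 12.1%. In WT, 1 of 5 was called without library 21, 2 without library 12 and 1 in a single fit of all 36 libraries. miR-133a-3p was called lower with TRAMP in all 3 lines, by 3.12-fold, 2.97-fold and 2.52-fold, while miR-1a-3p, the most abundant muscle miRNA, was called in none of them, at -0.16 ± 0.22 (SE), -0.34 ± 0.60 (SE) and -0.39 ± 0.31 (SE). In KO, where miR-133a-3p was called, the members differed by -0.17 to 0.07, with miR-378b at 0.07 and -0.32 under median-of-ratios scaling.

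**Figure D4:**
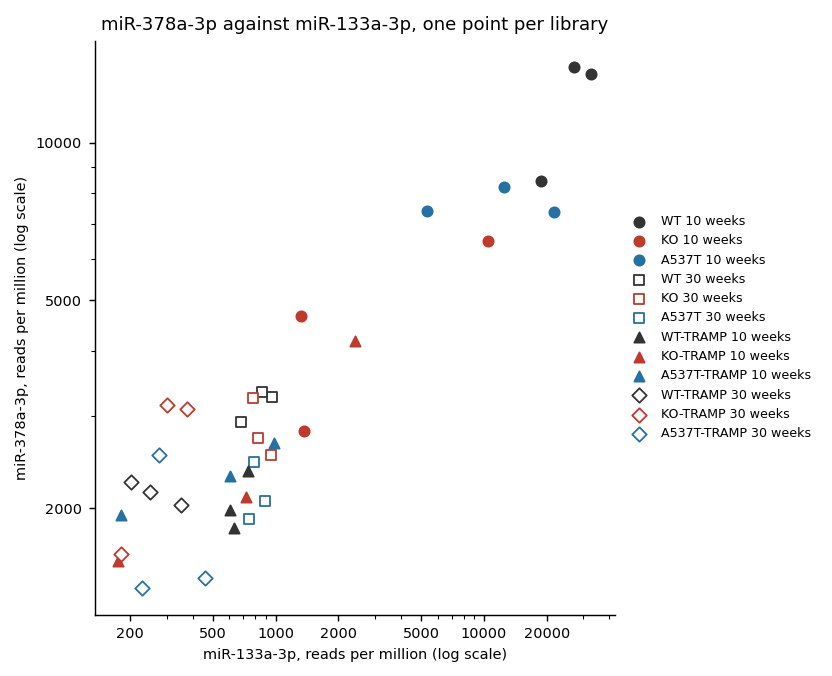
miR-378a-3p against miR-133a-3p in RPM, both on log scales, with 1 point per library. Over the 36 libraries miR-133a-3p spans 176 to 32625 and miR-378a-3p 1405 to 13969, and the A537T libraries of 10 weeks lie level in miR-378a-3p from 5334 to 21685 of miR-133a-3p.

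Within most groups, the order of the libraries differed between miR-378a-3p and miR-133a-3p. With 3 libraries in a group, such orders cannot decide whether the 2 levels go together. The same library was highest in both in 4 of 12 groups, and all 3 libraries had the same order in 2, KO-TRAMP and A537T-TRAMP of 10 weeks. The spread within a group was wider for miR-133a-3p in 9 of 12 groups. Library 9 of KO-TRAMP stood apart in both, at 2397 of miR-133a-3p and 3.09% of reads from the muscle list, where the other 26 libraries outside the groups of 10 weeks without TRAMP took 0.187% to 0.937%.

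The miRNAs outside the family with the level most like that of miR-378a-3p were named by Spearman's rho over the 36 libraries, among 293 miRNAs with a mean of at least 10 RPM, as a description in which the points share groups, library totals and depth. These were miR-133a-5p at 0.87, miR-133a-3p at 0.81, miR-24-2-5p at 0.78, miR-149-5p at 0.78 and miR-133b-3p at 0.77. Of these 5, 3 are arms of the muscle miR-133 hairpins. Among the members, rho with miR-378a-3p was 0.98 for miR-378c, 0.89 for miR-378d and 0.87 for miR-378a-5p and miR-378b. Over the 27 libraries outside the groups of 10 weeks without TRAMP, 2 of the 5 stayed among the first 5, miR-24-2-5p at 0.71 and miR-133a-3p at 0.59. In those 27 libraries rho was 0.96 for miR-378c, 0.78 for miR-378d and 0.72 for miR-378a-5p and miR-378b.

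By summed share, a list of 12 miRNAs tied to brown fat and mitochondrial metabolism was not highest where the family was. Its summed share was 3.02% to 3.26% of reads in WT of 10 weeks, and 3.84% to 3.89% in WT of 30 weeks. Muscle reads count in these totals, at 9.73% to 30.7% in the former and 0.389% to 0.449% in the latter. They lower the share of every other list in WT of 10 weeks. The most abundant miRNAs of the list were miR-27b-3p and miR-30c-5p, with means of 18919 and 7416 RPM. Its summed share mostly reflects these 2 and says little about its rarer miRNAs. In the comparison of those groups limma called 0 of 11 of the list, with a median difference of 0.32 against 0.14 for all miRNAs, and with TRAMP against without in WT of 10 weeks it called 1 of 12 higher and 2 lower. These stand beside 3.91% and 24.2% of all miRNAs called. At 30 weeks against 10 weeks it called 2 of 11 lower in A537T, beside 15.5%, 3 of 11 lower in KO, beside 25.2%, and 1 of 12 higher and 4 lower in WT-TRAMP, beside 20.6%. With TRAMP at 10 weeks it called 1 of 11 higher and 2 lower in A537T, beside 33%, and 4 of 12 higher and 4 lower in KO, beside 43.9%. With TRAMP at 30 weeks it called 2 of 11 higher and 3 lower in WT, beside 28.8%. In KO it called 4 of 12 higher and 2 lower, beside 17.6%, and in A537T 3 of 12 higher and 1 lower, beside 12.1%. Over the 8 comparisons of mutant lines it called 0 of the list, as it called 0 of all miRNAs.

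Some marker miRNAs of other cells were called where WT of 10 weeks was compared. Against it at 30 weeks, limma called 1 of 7 epithelial miRNAs higher and 1 of 3 of red blood cells lower. The share of all miRNAs called was 3.91%. Limma called 0 of 6 of smooth muscle and stroma and 0 of 5 of white blood cells, none of which had an unadjusted p under 0.05. With TRAMP at 10 weeks it called 3 of 7 epithelial miRNAs higher, 1 of 3 of red blood cells lower, 1 of 5 of white blood cells higher and 0 of 6 of smooth muscle and stroma. The share of all miRNAs called there was 24.2%. Red blood cell miRNAs, led by miR-486ab-5p_merged and miR-451a, took 0.156% to 0.193% of reads in WT of 10 weeks, 0.0324% to 0.0827% in WT of 30 weeks and 0.0173% to 0.0302% in WT-TRAMP of 10 weeks. Epithelial miRNAs, led by miR-200b-3p and miR-200a-3p, took 4.54% to 6.88% in WT of 10 weeks, 8.14% to 10.3% in WT of 30 weeks and 8.04% to 9.29% in WT-TRAMP of 10 weeks. Smooth muscle and stromal miRNAs, led by miR-143-3p and miR-145a-5p, took 7.31% to 30.6%, 13.6% to 24.6% and 9.30% to 11.5% in the same groups. White blood cell miRNAs, led by miR-142a-5p and miR-142a-3p, took 0.0236% to 0.0462%, 0.0234% to 0.0382% and 0.0396% to 0.0731%, and the liver miRNA miR-122-5p did not exceed 45.2 RPM in any library. The part of these cells in the differences of the family was not tested.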

How the data were processed

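Small RNA libraries of 36 samples were sequenced. The authors merged read pairs with BBMerge, counted miRNAs with mirDeep2 against GRCm38 and miRBase, summed identical sequences, and deposited a signal in 8 tables, the reads of each miRNA divided by a DESeq2 size factor. Their deposited comparisons (shrunken log2 fold changes and s-values) were not used. Division of every library by the size of its unit step gave whole numbers (100% of values whole, within 0.02). These were taken as reads and scaled to RPM, reads per 1000000 of the library's miRNA total. The values cannot tell whole reads from rounded sums of the reads that were shared out by weight. Binomial intervals treat them as plain counts. Columns carry library numbers and no group. A column in both the KO and the mutant table of an age and background was taken as control, the others as the line of the table, with "Mut" read as A537T, and nothing in the values checks this. The study describes the replicates as 3 mice per line and time point, and p-values measure the spread between their libraries.

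Limma 3.58.1 (variance trend, two-sided) was fitted to log2(RPM + 1) for miRNAs with a mean of at least 1 RPM over 6 libraries. Alternatives were median-of-ratios scaling, totals without muscle reads, no filter or one at a mean of 10 RPM, a pseudocount of 10, edgeR, DESeq2, 1 fit of 36 libraries and leaving out each library. Folds of group means without each library, and calls of the marker lists by other tools, were added after seeing the data. Functions were tested on simulated data. Members, lists and the rule naming miRNAs (the members, miR-133a-3p, the 5 most alike and the 2 most abundant of each list) were chosen with earlier results of these data known. Binomial intervals are by Wilson's method.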

Additional observations from a re-analysis of the deposited data

Results flagged for a closer look

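mmu-miR-378a-5p differed between KO and its control in opposite directions on the 2 backgrounds at 30 weeks. All KO libraries, at 25.02 to 36.5 RPM, lay below all WT libraries, at 37.1 to 48.4, a difference of -0.53 on the log2 scale. All KO-TRAMP libraries, at 22.0 to 32.3, lay above all WT-TRAMP libraries, at 19.7 to 21.7, a difference of 0.43. On both backgrounds the nearest libraries of the groups were not apart beyond counting error. By Wilson intervals, library 16 of KO-TRAMP spanned 19.4 to 24.9 RPM and library 11 of WT-TRAMP 19.5 to 24.3. Library 23 of KO spanned 33.5 to 39.7 RPM and library 19 of WT 34.3 to 40.1. The differences stand 0.962 apart on the log2 scale, and this gap was not tested. The medians of all miRNAs were -0.19 and 0.11, and relative to them the differences were -0.34 and 0.33. Of all miRNAs, 14.1% lay below WT in KO and 18.3% above WT-TRAMP in KO-TRAMP without overlap. Both differences of miR-378a-5p kept their sign under every scaling, tool and omission of a library that was tried.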

How the results depend on the processing

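The number of calls over the 5 members and 8 comparisons of mutant lines was 0 by limma and 5 by DESeq2 and in 1 fit of all 36 libraries, all in KO against WT of 10 weeks, and 0 to 5 with 1 library left out. Over the 6 comparisons of age it was 10, and 5 to 14 with 1 library left out, and over the 6 of TRAMP it was 15, and 11 to 17. The difference of miR-378a-3p between KO and WT of 30 weeks, -0.17, was 0.065 under median-of-ratios scaling, 0.042 by edgeR and 0.066 by DESeq2. Its fall with age in WT was -2.20 with muscle reads left out of the totals, and in A537T it was -1.68 under median-of-ratios scaling and -1.69 by edgeR. With TRAMP at 10 weeks it was -2.83 in WT with muscle reads left out, and in A537T -1.35 under median-of-ratios scaling, -1.33 by edgeR and -1.38 by DESeq2. With TRAMP at 30 weeks it was -0.45 in WT by edgeR, and in KO -0.57 under median-of-ratios scaling and by DESeq2. The causes were not tested. Of the 5 miRNAs most like miR-378a-3p, 2 stayed over 27 libraries and 4 with muscle reads left out. No paired analysis was possible because the columns carry library numbers and no replicate numbers shared between groups. Leaving out a library leaves 2 against 3, and the 655455 reads of library 35 limit the precision of the rarer members there.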
